A study of Mus musculus with 6 samples.

Results

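Blood vessels of the brain are built from endothelial cells, which line the lumen, and from mural cells, the pericytes of capillaries and the smooth muscle cells of larger vessels, which wrap around them. The 32 genes described here were chosen as a fixed list of symbols, 22 of endothelial cells (Pecam1 to Sox18) and 10 of mural cells (Rgs5 to Higd1b), out of the 31276 symbols in the count table, and all 32 were found. RNA was sequenced from mouse brain (strain C57BL/6) at postnatal day 14 in 3 samples labelled wild-type (WT) and 3 labelled as a knockout of PRMT5 with Olig2-Cre (KO), where PRMT5 is an arginine methyltransferase and Olig2 encodes a transcription factor that oligodendrocytes and their precursors make. The comparison addresses how vessel transcripts of the brain differ when Prmt5 is targeted with Olig2-Cre. The labels do not say whether the WT samples carry Cre or a floxed allele, nor whether the samples of a group come from separate animals, so the p-values reflect only how far these 3 and 3 libraries spread, which may in part be technical.

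Brain endothelium forms the blood-brain barrier. It seals its junctions, suppresses transcytosis and carries nutrients through dedicated transporters, and it depends on VEGF, angiopoietin and Wnt signals from the cells around it. Pericytes share the basement membrane with the endothelium and are recruited through PDGF-B. Oligodendrocyte precursors migrate along vessels during development and are one known source of Wnt ligands for the endothelium. Olig2-Cre is directed at cells that make Olig2 and at their descendants, which include the oligodendrocyte lineage but need not be limited to it. The genes described here are mostly known from vascular cells. Which cells lost Prmt5 cannot be read from bulk RNA.

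Libraries held 15089140 to 16872925 counts, and levels are given as CPM, counts scaled to each library's total after TMM adjustment. Neuronal transcripts were abundant in all 6 libraries (Snap25, a synaptic vesicle fusion gene, at 1379 CPM or more). Prmt5 had 90.8, 90.4 and 91.8 CPM in the WT libraries (replicates 1 to 3) and 68.2, 68.4 and 81.6 CPM in KO replicates 1 to 3, lower in all KO libraries. It was not called without a block (edgeR quasi-likelihood, Benjamini-Hochberg adjusted p = 0.232) and was called with the replicate number as a block (0.0379). Libraries also differed in cerebellar transcripts. Gabra6, a gene of cerebellar granule cells, was detected in WT replicate 1 (63.8 CPM), KO replicate 1 (80.0 CPM) and KO replicate 3 (22.1 CPM), and it had no count in the rest. Of 16592 genes tested, 199 were called at an adjusted p under 0.05 (40 higher and 159 lower in KO), and 566 with the replicate number as a block.

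No endothelial or mural member was called between KO and WT. Of the 22 endothelial genes, all were tested and 0 were called, and of the 10 mural genes 9 were tested and 0 were called, against 1.2% of all tested genes (0.241% higher and 0.958% lower). The counts were also 0 and 0 with the replicate block (3.41% of all tested genes) and in DESeq2 (1.93%). At an unadjusted p under 0.05 there were 3 of 31 members (Mfsd2a, Rgs5 and Vtn), against 9.67% of all tested genes. For 4 of 31 members the range of the WT libraries was clear of the KO range, 2 with KO above (Slco1a4 and Vtn) and 2 with KO below (Mfsd2a and Rgs5), against 16.0% of all tested genes (8.02% above and 7.99% below). In the bulk tissue, fewer cells of a type and less RNA per cell cannot be told apart.

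The promoters of those 4 members are shown because they are the only tested members whose 3 KO libraries lay wholly to one side of the 3 WT libraries. Each window runs from 250 bases before to 50 bases after a transcription start in RefSeq (GRCm38.p6), written 5′ to 3′ on the gene's strand. Capitals mark matches to TATAAA on either strand. Other motifs were searched on both strands, CCGGAA (a core bound by ETS factors) and the CArG box bound by serum response factor, and had no match in these 4 windows. The windows are Mfsd2a at chr4:122961139-122961438 (minus strand), Slco1a4 at chr6:141856171-141856470 (minus strand), Rgs5 at chr1:169655251-169655550 (plus strand) and Vtn at chr11:78498870-78499169 (plus strand).
Mfsd2a: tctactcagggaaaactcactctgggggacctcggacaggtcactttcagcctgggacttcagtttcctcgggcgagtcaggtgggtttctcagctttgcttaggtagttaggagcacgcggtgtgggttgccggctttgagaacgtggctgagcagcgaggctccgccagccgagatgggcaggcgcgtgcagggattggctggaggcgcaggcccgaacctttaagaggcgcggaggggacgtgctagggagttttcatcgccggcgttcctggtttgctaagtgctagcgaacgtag
Slco1a4: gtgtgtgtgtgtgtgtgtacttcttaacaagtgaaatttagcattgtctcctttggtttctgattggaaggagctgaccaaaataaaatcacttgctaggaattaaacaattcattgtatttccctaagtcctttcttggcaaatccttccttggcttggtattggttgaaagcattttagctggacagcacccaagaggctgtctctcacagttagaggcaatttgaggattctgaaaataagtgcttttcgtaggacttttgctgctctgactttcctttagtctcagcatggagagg
Rgs5: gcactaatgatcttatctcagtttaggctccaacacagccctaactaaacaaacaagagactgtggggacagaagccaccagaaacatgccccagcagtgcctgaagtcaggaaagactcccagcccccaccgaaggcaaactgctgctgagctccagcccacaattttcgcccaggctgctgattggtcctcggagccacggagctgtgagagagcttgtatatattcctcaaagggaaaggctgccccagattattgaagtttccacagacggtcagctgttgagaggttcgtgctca
Vtn: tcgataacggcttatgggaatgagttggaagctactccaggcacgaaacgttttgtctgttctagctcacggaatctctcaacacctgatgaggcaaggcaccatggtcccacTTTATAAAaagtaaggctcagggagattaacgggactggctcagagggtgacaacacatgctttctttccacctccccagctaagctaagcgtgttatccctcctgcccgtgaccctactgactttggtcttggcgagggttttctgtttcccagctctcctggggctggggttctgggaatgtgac
The Vtn window held 2 overlapping TATAAA matches on opposite strands, from base 114 of the window. Among members, RefSeq windows were found for 19 genes (22 windows). A match to TATAAA was present for 5 of these genes (Erg, Flt1, Ly6c1, Slc2a1 and Vtn), to CCGGAA for 1 (Kdr) and to the CArG box for 0. Counted by window these were 5, 1 and 0 of 22 windows. Over all 32851 windows of the same length the shares of windows were 13.6% for TATAAA, 14.9% for CCGGAA and 1.63% for the CArG box. The G+C content was 60.3% for Mfsd2a, 40.7% for Slco1a4, 52.3% for Rgs5 and 51.7% for Vtn, beside a median of 52.7% over all windows.

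Levels between genes were compared as CPM per kilobase of exonic length. Vtn, which encodes the matrix protein vitronectin made by brain pericytes, was highest at a mean of 28.3 CPM per kb over the 6 libraries. It was followed by Mfsd2a at 18.7 and Slc2a1 at 17.2 CPM per kb, the barrier transporters of lysophospholipids and of glucose. Ly6c1 (10.1 CPM per kb), a surface protein gene of capillary endothelium, and the co-receptor gene Eng (7.04 CPM per kb) came next. At the low end stood Vwf (0.848), Myh11 (0.531), Des (0.507) and Cnn1 (0.0842 CPM per kb). In this order, 27 of 31 pairs of neighbours had overlapping library ranges. The exceptions were the steps from Slc2a1 to Ly6c1, Ly6c1 to Eng, Eng to Esam, and Des to Cnn1.

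**Figure D1:**
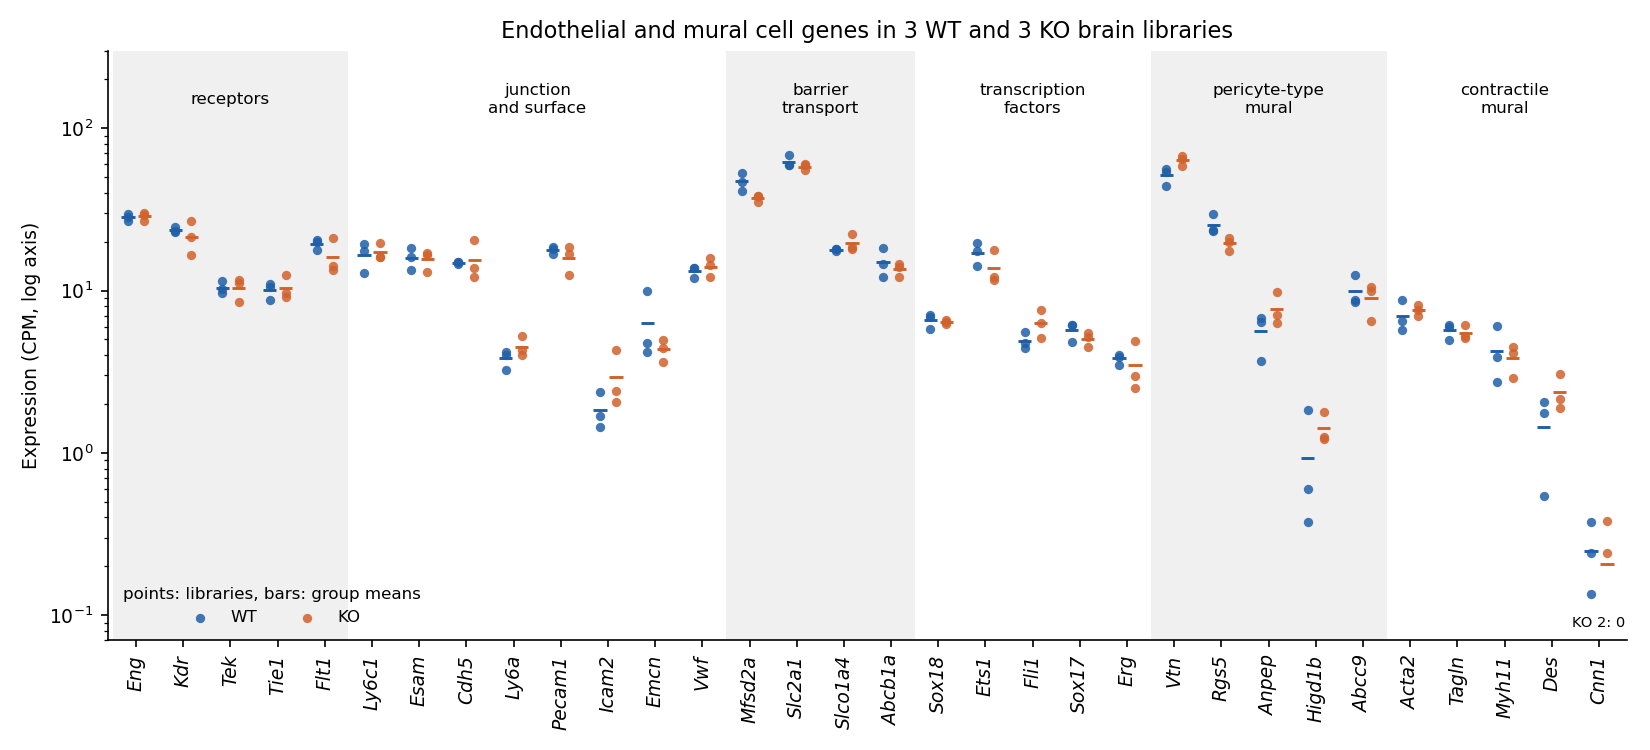
Expression of the 32 members in CPM (log axis, not divided by gene length), with 1 point per library, WT in blue and KO in orange, a short bar for the group mean, and shading by role. WT and KO points intermingle for most genes, and Cnn1 was at 0 in KO replicate 2. The groups do not overlap only for Mfsd2a, Vtn, Rgs5 and Slco1a4. For Slco1a4 the separation is too small to see, with WT replicate 2 and KO replicate 1 both at 18.1 CPM.

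Barrier transport genes held the endothelial member with the smallest p. Mfsd2a (GENCODE M21 on mm10, chromosome 4, 122946850 to 122961188), which carries lysophosphatidylcholine carrying docosahexaenoic acid into the brain and restrains transcytosis, had 41.3, 46.9 and 53.1 CPM in the WT libraries (replicates 1 to 3) and 38.1, 35.03 and 38.4 CPM in KO replicates 1 to 3. The KO libraries were all below the WT libraries, and WT replicate 1 was the nearest to them. The log2 fold change was -0.34 (SE 0.113, 95% interval -0.59 to -0.09; edgeR quasi-likelihood, adjusted p = 0.310). With length-adjusted offsets and the replicate block together Mfsd2a was called (-0.42, edgeR Benjamini-Hochberg adjusted p = 0.0348, where 2.91% of all tested genes were called). With the block alone the edgeR adjusted p was 0.0841, and over all alternatives it ran from 0.0348 to 0.829, the last without WT replicate 3 (log2 fold change -0.25). Between libraries with cerebellar transcripts (KO replicates 1 and 3, WT replicate 1) the log2 ratio of mean CPM was -0.11, and between those without (KO replicate 2, WT replicates 2 and 3) it was -0.51. Among libraries with Xist above 5 CPM (WT replicate 2, KO replicates 1 and 2) it was -0.36. Among the others (WT replicates 1 and 3, KO replicate 3) it was -0.30. This split was uneven between the groups, and WT replicate 2 and KO replicate 3 each stood alone for their group. The same split served as the term for sex in the fits.

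The other transporters were nearer to equality. Slc2a1, the glucose transporter gene of the barrier, read 59.3, 59.6 and 67.9 CPM in WT and 55.3, 59.0 and 59.9 CPM in KO for replicates 1 to 3. Its groups overlapped, and the 95% interval of the log2 fold change, -0.31 to 0.10, was the narrowest of the 31 tested members. Slco1a4, an organic anion transporter gene, had 17.9, 18.1 and 17.6 CPM in WT and 18.1, 22.4 and 18.5 CPM in KO. All KO values lay above the WT values, though KO replicate 1 and WT replicate 2 were nearly equal, with a log2 fold change of 0.14 (SE 0.130). The log2 ratio of mean CPM of Slco1a4 was 0.03 with and 0.33 without cerebellar transcripts. Abcb1a, which encodes the efflux pump P-glycoprotein, ranged from 12.1 to 18.3 CPM in WT and from 12.2 to 14.7 CPM in KO, with overlap.

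Receptors of the endothelium had median log2 fold change 0.00 over 5 genes. Kdr, the main signalling receptor for VEGF-A, read 22.9, 24.6 and 23.3 CPM in WT and 26.7, 21.3 and 16.5 CPM in KO for replicates 1 to 3. The 3 WT libraries were close together and the KO libraries spread to both sides of them. Flt1, a VEGF receptor that also acts as a decoy, had the same arrangement, with 17.8, 20.4 and 20.04 CPM in WT and 21.04, 14.1 and 13.4 CPM in KO (log2 fold change -0.26, SE 0.176). The angiopoietin receptor gene Tek and its partner Tie1 had log2 fold changes of 0.00 (SE 0.168) and 0.05 (SE 0.176). Eng, endoglin, a co-receptor for ligands of the TGF-beta family, varied least of the 32 members, from 26.7 to 30.1 CPM over the 6 libraries (log2 fold change 0.01, SE 0.111).

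Junction and surface genes included the widest intervals among endothelial members. Cdh5, which encodes VE-cadherin of adherens junctions, had 14.9, 14.5 and 14.9 CPM in WT and 20.4, 12.0 and 13.8 CPM in KO, so that KO replicate 1 was highest and the other KO libraries were below all WT libraries. Pecam1, an adhesion molecule of endothelial contacts, ranged from 16.9 to 18.5 CPM in WT and from 12.5 to 18.5 CPM in KO. Esam, another adhesion gene, and Vwf, the clotting factor gene of larger vessels, had log2 fold changes of -0.03 (SE 0.162) and 0.09 (SE 0.149). Emcn, endomucin, a sialomucin of capillaries and veins, stood at 4.75, 4.19 and 9.93 CPM in WT and at 3.65, 4.98 and 4.45 CPM in KO. WT replicate 3 stood above every other library, and without it the log2 fold change moved from -0.53 (SE 0.316) to -0.04. Icam2, an adhesion gene for leukocytes, was low, at 1.44 to 2.37 CPM in WT and 2.07 to 4.28 CPM in KO, the highest value being KO replicate 2. Ly6c1 and Ly6a, which encode small membrane-anchored proteins and have close relatives in the same gene cluster, had log2 fold changes of 0.06 (SE 0.169) and 0.24 (SE 0.221). Reads shared within the Ly6 family, or between Abcb1a and Abcb1b, may have been split by the counting.

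Endothelial transcription factors had a median log2 fold change of -0.14 over 5 genes, of which 4 were negative and 0 called. Erg, Fli1 and Ets1 belong to the ETS family, which acts at many endothelial enhancers, and Sox17 and Sox18 to the SOX-F group of vascular factors. Fli1 stood at 4.75, 5.54 and 4.45 CPM in WT and 7.60, 6.30 and 5.08 CPM in KO, with overlapping groups (log2 fold change 0.37, SE 0.212). Ets1 had 19.5, 17.5 and 14.2 CPM in WT and 17.8, 12.0 and 11.6 CPM in KO, also with overlapping groups (-0.31, SE 0.190). Ets1 is also transcribed in lymphocytes and other cells. Erg ranged from 3.50 to 4.03 CPM in WT and from 2.52 to 4.87 CPM in KO. Sox17 and Sox18 ranged from 4.47 to 6.15 and from 5.81 to 7.06 CPM over all 6 libraries.

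Pericyte-type mural genes went in both directions. Vtn (chromosome 11, 78499091 to 78502324) stood at 44.0, 53.4 and 56.4 CPM in WT and at 65.1, 58.5 and 67.5 CPM in KO for replicates 1 to 3. All KO libraries were above all WT libraries, with WT replicate 3 and KO replicate 2 the closest. The log2 fold change was 0.31 (SE 0.111, 95% interval 0.07 to 0.56; edgeR quasi-likelihood, adjusted p = 0.358). With a term for cerebellar transcripts and the replicate block together Vtn was called (0.35, edgeR Benjamini-Hochberg adjusted p = 0.0484, where 3.22% of all tested genes were called). With the block alone the edgeR adjusted p was 0.083, and over all alternatives it ran from 0.0484 to 0.672. The log2 ratio of mean CPM was 0.59 between libraries with cerebellar transcripts and 0.09 between those without, and 0.21 and 0.43 between libraries with Xist above 5 CPM and the others.

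Rgs5 (chromosome 1, 169655501 to 169695813), which encodes a regulator of G-protein signalling and is a standard pericyte marker, lay the other way. It read 23.6, 23.1 and 29.8 CPM in WT and 19.8, 21.04 and 17.6 CPM in KO, with every KO library below every WT library. The log2 fold change was -0.39 (SE 0.140, 95% interval -0.70 to -0.08; edgeR quasi-likelihood, adjusted p = 0.370). The replicate block gave an edgeR adjusted p of 0.146. The log2 ratio of mean CPM of Rgs5 was -0.34 with and -0.33 without cerebellar transcripts, and -0.18 and -0.60 with and without Xist above 5 CPM.

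Abcc9, the regulatory subunit of a potassium channel of pericytes, did not follow either gene (8.50, 8.79 and 12.4 CPM in WT, 10.5, 9.95 and 6.48 CPM in KO). Anpep, aminopeptidase N, which fibroblasts also express, had 3.69, 6.76 and 6.44 CPM in WT and 9.79, 7.06 and 6.35 CPM in KO. WT replicate 1 was lowest and KO replicate 1 highest, and the log2 fold change of 0.46 (SE 0.259) had an interval from -0.11 to 1.03. Higd1b, a mitochondrial membrane protein gene enriched in pericytes, rested on 6 to 28 counts per library and had the widest interval of the 31 tested members (-0.56 to 1.79). The median log2 fold change of the 5 pericyte-type genes was 0.31, and 0.22 with length-adjusted offsets, beside 0.01 over all tested genes. Both medians are the values of Vtn itself, with Anpep and Higd1b above it and Rgs5 and Abcc9 negative.

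Contractile genes of smooth muscle had a median of 0.03 over 4 tested genes. Acta2, smooth muscle actin, had 5.75, 6.49 and 8.78 CPM in WT and 8.15, 7.56 and 6.99 CPM in KO, with the KO values inside the upper part of the WT range. Tagln, the actin-binding protein transgelin, ranged from 4.93 to 6.15 CPM over the 6 libraries. Myh11, smooth muscle myosin heavy chain, had 2.75, 3.92 and 6.02 CPM in WT and 3.84 ± 0.838 CPM (SD, n = 3) in KO. WT replicate 3 was highest for Acta2 and Myh11, and not for Tagln, which was lowest there. Des, the muscle intermediate filament desmin, rested on 8 to 48 counts per library (log2 fold change 0.69, SE 0.437, interval -0.27 to 1.66). Cnn1, calponin, did not pass the filter on low counts. Its counts were 6, 2 and 4 in WT and 4, 0 and 6 in KO for replicates 1 to 3, and a count of 0 in KO replicate 2 allows up to 0.189 CPM (3 counts), for counting error only.

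**Figure D2:**
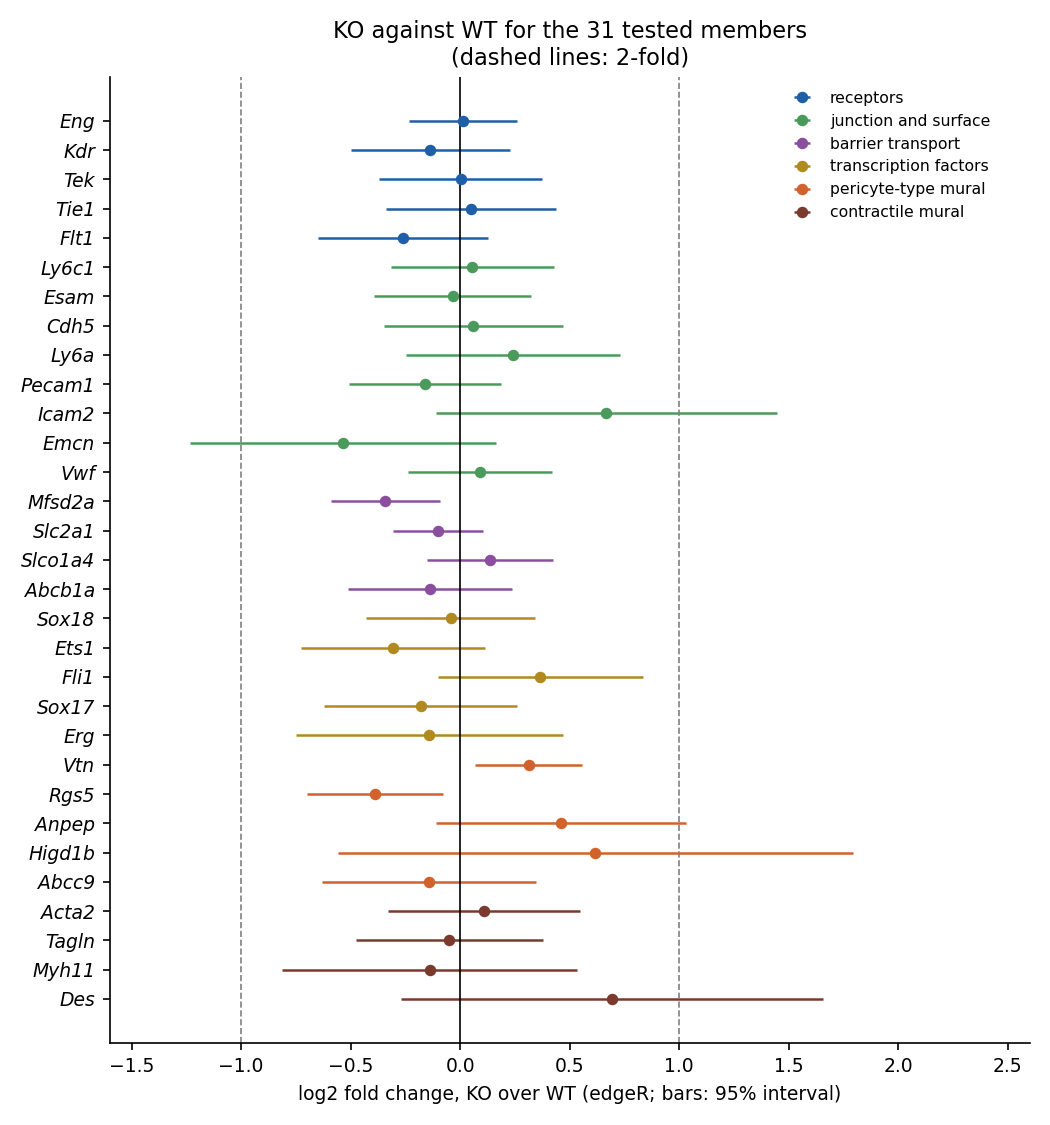
Log2 fold change of KO over WT for the 31 tested members (points, edgeR) with 95% intervals (bars), coloured by role, and dashed lines at 2-fold either way. The intervals of Mfsd2a, Rgs5 and Vtn leave out 0 before any adjustment for multiple tests, and those of Icam2, Emcn, Anpep, Higd1b and Des reach past 2-fold.

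The precision of these values bounds what could have been seen. For 26 of 31 members the 95% interval of the difference lay within 2-fold in both directions, and for 16 within 1.5-fold. The same held for 13660 and 9959 of the 16592 tested genes. Among endothelial genes 20 of 22 lay within 2-fold, the exceptions being Icam2 and Emcn, and among mural genes 6 of 9. The median size of the log2 fold change, regardless of sign, was 0.14 for members and 0.14 for all tested genes. Mbp, which encodes myelin basic protein, had a log2 fold change of -2.74 (SE 0.241) in the same fit.

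Libraries of the same group differed in their overall level of these genes. Per library, the median over members of log2(CPM + 0.1) minus the mean of all 6 libraries was taken. For the 5 receptor genes it was highest in KO replicate 1 (0.26) and lowest in KO replicate 3 (-0.28), with WT libraries at 0.02 to 0.11 between them. The 5 transcription factors had 0.23 in KO replicate 1 and -0.25 and -0.12 in KO replicates 2 and 3. Mural members were lowest in WT replicate 1 (-0.32) and highest in WT replicate 3 (0.24), both of the same group. Of 22 endothelial genes, 7 were highest in KO replicate 1, and of 9 mural genes, 5 were lowest in WT replicate 1. KO replicate 1 and WT replicate 1 are also the libraries with the most Gabra6. KO replicate 3, the lowest for receptors, had Gabra6 as well (22.1 CPM). The part of cerebellar tissue in these positions was not tested.

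**Figure D3:**
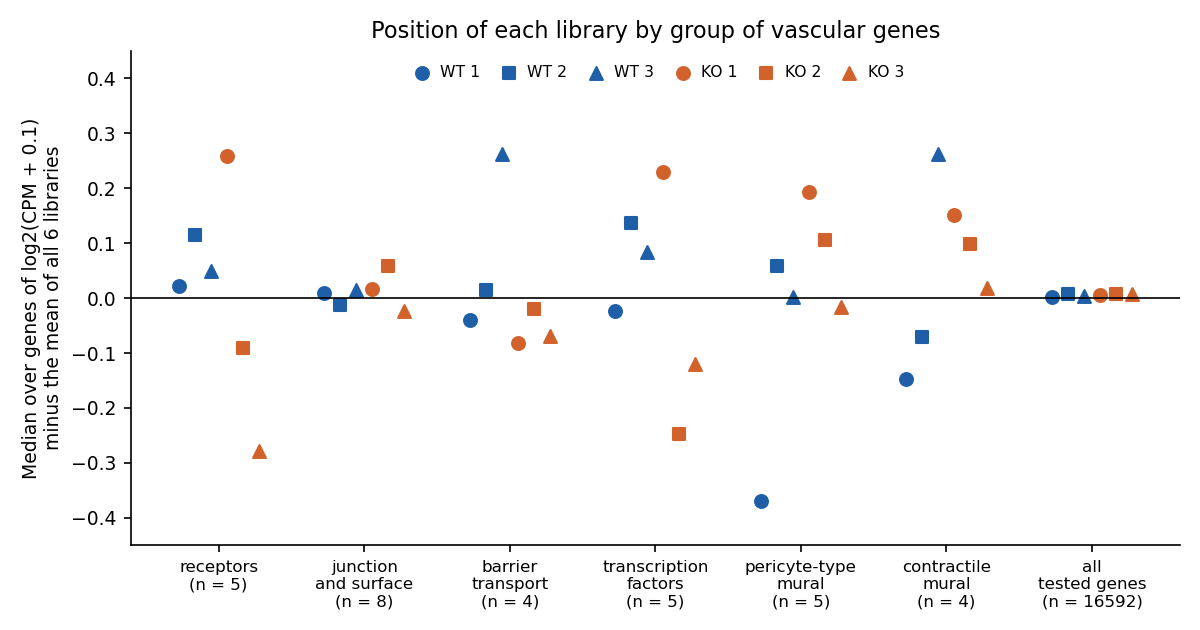
Median over the genes of each role of log2(CPM + 0.1) relative to the mean of all 6 libraries, with 1 marker per library (circle, square and triangle for replicates 1, 2 and 3, WT blue and KO orange). KO replicate 1 (0.26) and KO replicate 3 (-0.28) stand on opposite sides of the WT libraries for receptors, WT replicate 1 is low for pericyte-type genes (-0.37), and all tested genes lie near 0.

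The median differed between members split by exonic length, and this difference was not tested. The 15 shorter tested members (847 to 4048 bases) had a median log2 fold change of 0.06 and the 16 longer ones (4135 to 16064 bases) of -0.14. With offsets adjusted for exonic length per library these were 0.00 and -0.10. The medians of the endothelial and mural members went from -0.04 and 0.11 to -0.09 and 0.02. The median of all tested genes was 0.01 and 0.00. The mural median of 0.11 also rested on single libraries, at -0.01 without WT replicate 1, 0.05 without WT replicate 2 or KO replicate 1, and 0.30 without WT replicate 3, and it was 0.35 with the cerebellar term and block.

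Further vascular genes were read from 8 lists of the pathway, in which 99 genes other than the members were named and 95 were tested. Of these, 1 fell and 0 rose, and 3 were called higher and 3 lower with the replicate block, against 1.2% and 3.41% of all tested genes called. The gene that fell was Mcam, which encodes the adhesion molecule CD146 of mural and endothelial cells. It stood at 33.7, 26.3 and 29.5 CPM in WT and at 19.2, 14.1 and 12.2 CPM in KO, with all KO libraries lower. The log2 fold change was -0.98 (SE 0.174, edgeR quasi-likelihood, adjusted p = 0.0216). The log2 ratio of mean CPM of Mcam was -1.10 with and -0.99 without cerebellar transcripts, and -0.66 and -1.37 with and without Xist above 5 CPM. The call was lost without WT replicate 1, WT replicate 3, KO replicate 2 or KO replicate 3 (adjusted p of 0.0912, 0.0902, 0.103 and 0.0838 in edgeR) and with a term for sex (0.0636), at log2 fold changes of -0.84 to -1.01.

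Of 15 other mural genes tested, Mcam included, 1 fell, 7 had positive values and the median was -0.04. These genes spread widely, from -1.07 to 0.57. Their median size regardless of sign was 0.25, beside 0.14 over all tested genes. The groups did not overlap for 3 genes with KO above and 3 with KO below, against 8.02% and 7.99% of all tested genes. Cspg4, which encodes NG2 of pericytes and of oligodendrocyte precursors, had 29.6, 32.4 and 22.8 CPM in WT and 21.8, 18.7 and 18.9 CPM in KO (log2 fold change -0.51, SE 0.149). It was not called (edgeR, Benjamini-Hochberg adjusted p = 0.227), and was called with the replicate block (0.0316). Pdgfrb, the PDGF-B receptor by which pericytes are recruited, lay the other way, at 27.5, 31.7 and 24.7 CPM in WT and 37.4, 33.6 and 32.7 CPM in KO. Its groups did not overlap (0.31, SE 0.125), and it was not called (edgeR adjusted p = 0.446, and 0.163 with the block). Pdgfra, which marks oligodendrocyte precursors and also fibroblasts, fell from 90.8 ± 1.83 to 52.1 ± 3.43 CPM (SD, n = 3).

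Other endothelial genes gave 0 calls of 18 tested, with a median of 0.00. Pltp, a phospholipid transfer gene, had the smallest p, at 31.4, 43.5 and 39.7 CPM in WT and 48.4, 49.0 and 48.7 CPM in KO (log2 fold change 0.35, SE 0.122). Cd34, a sialomucin gene, and She, an adaptor gene, followed at -0.18 (SE 0.109) and 0.40 (SE 0.268). Cldn5, the main claudin of barrier tight junctions, had 33.5, 33.4 and 31.8 CPM in WT and 32.7, 29.4 and 37.9 CPM in KO, with the WT libraries inside the KO range.

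In the transport list 0 of 15 genes were called. Slc38a3, a glutamine transporter gene also found in astrocytes, stood at 87.4, 86.8 and 75.1 CPM in WT and 110.4, 112.3 and 106.9 CPM in KO. All KO libraries were higher (log2 fold change 0.40, SE 0.0900, edgeR Benjamini-Hochberg adjusted p = 0.0726). It was called with the replicate block (0.00573) and by DESeq2 (0.0195). Slc7a1, an arginine transporter gene, and Cav1, caveolin of caveolae, had values of -0.30 (SE 0.131) and -0.26 (SE 0.135).

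Arterial and venous genes gave 0 calls of 10 and 0 of 6 tested, with medians of 0.11 and 0.05. Dll4, the Notch ligand of arterial and tip cells, had 3.50, 2.64 and 3.25 CPM in WT and 4.99, 5.29 and 3.75 CPM in KO, all higher but not called (0.58, SE 0.236, edgeR adjusted p = 0.449). Bmx and Gkn3, arterial genes of low level, had -0.77 (SE 0.487) and 0.59 (SE 0.442). Unc5b, a netrin receptor gene named after its values were seen, was called with the block only (edgeR adjusted p = 0.721, and 0.0176 with the block). Among venous genes, Darc (now Ackr1), Nr2f2 and Aplnr had values of 0.19 (SE 0.125), 0.22 (SE 0.145) and -0.11 (SE 0.222).

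Tip cell genes, which mark the leading endothelial cells of sprouts, had a median of 0.37 over 9 tested genes with 0 called. In 4 of the 9 the KO libraries were all above the WT libraries (Lamb1, Nid2, Dll4 and Cxcr4), against 8.02% of all tested genes in that direction. Lamb1, a laminin chain of basement membranes, had 33.1, 29.8 and 31.5 CPM in WT and 47.5, 40.5 and 41.0 CPM in KO (0.45, SE 0.108). Its edgeR adjusted p was 0.105, and 0.0138 with the block and 0.0428 in DESeq2. Nid2, a nidogen that links laminin and collagen, was at 0.58 (SE 0.174; edgeR adjusted p = 0.245, blocked 0.0365). In the remaining tested genes of this list the groups overlapped.

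Markers of meningeal fibroblasts, which also make basement membrane, were higher in KO. Of 11 tested, 5 rose (Col3a1, Lum, Col1a1, Col1a2 and Slc6a13) and 1, Pdgfra, fell, at edgeR adjusted p-values of 0.000368 (Col3a1) to 0.03 (Slc6a13). With 1 library left out, Col3a1, Lum and Pdgfra were called each time. Col1a1 lost its call without WT replicate 3 (edgeR adjusted p = 0.0529). Col1a2 lost it when any single WT library or KO replicate 2 was left out (edgeR adjusted p of 0.0669 to 0.1502), and also with a term for sex (0.0873). Slc6a13 lost it when any single library other than KO replicate 2 was left out (edgeR adjusted p of 0.054 to 0.175). Col3a1, a fibrillar collagen gene, went from 23.5 ± 4.46 to 82.0 ± 18.0 CPM (SD, n = 3). The summed level of the 11 was 223 to 232 CPM in WT and 281 to 382 CPM in KO, and none of the 11 was at 0 in all libraries. Among the KO libraries the sum was 382, 309 and 281 CPM in replicates 1 to 3. Nid2 (18.7, 18.3 and 12.5 CPM), Pdgfrb and Anpep had the same order. That order was not particular to them. Kdr, Flt1, Abcc9 and Mcam (19.2, 14.1 and 12.2 CPM), all with negative log2 fold changes, had it as well. Lamb1 was highest in KO replicate 1, and Vtn was highest in KO replicate 3. The part of meningeal fibroblasts in the values of Lamb1, Nid2, Vtn, Pdgfrb and Anpep was not tested. The 6 perivascular macrophage markers all had positive values (median 0.43) with 0 called, beside 52.3% positive over all tested genes. They were led by Stab1 (0.31, SE 0.139), Pf4 (0.81, SE 0.370) and Mrc1 (0.43, SE 0.217). Their summed level was 21.2 to 28.6 CPM in WT and 30.3 to 31.8 CPM in KO. The 6 cerebellar granule cell markers also all had positive values (median 0.42) with 0 called.

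**Figure D4:**
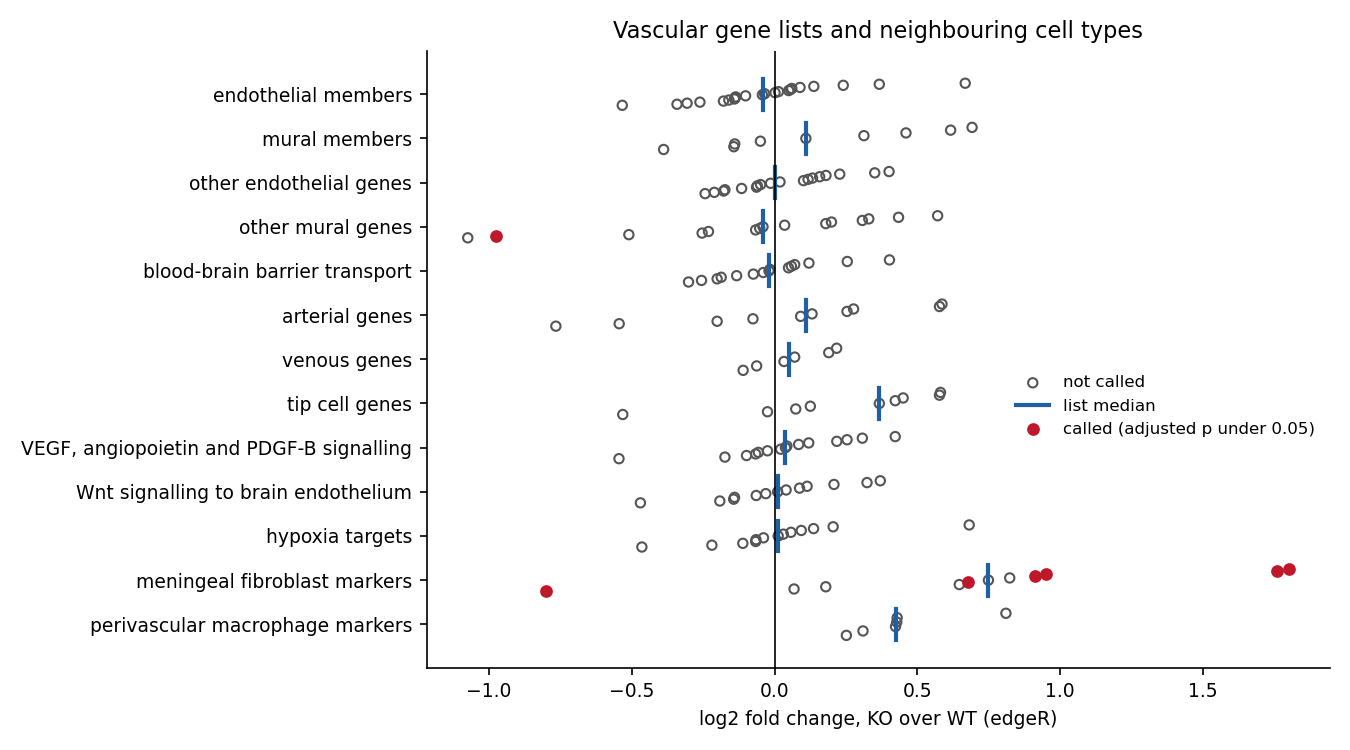
Log2 fold change of KO over WT (edgeR) for every tested gene of the vascular lists and of 2 neighbouring cell types, 1 row per list, with called genes filled in red and the list median as a blue bar. Both member lists centre near 0 (-0.04 and 0.11) with no called gene, Mcam is the called gene of the other mural genes, and the meningeal list lies to the right at a median of 0.75.

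Signals to the vessel wall gave 0 calls. Of 15 genes of VEGF, angiopoietin and PDGF-B signalling the median was 0.04, led by Pdgfrb, by Vegfb (0.22, SE 0.0891), a VEGF family ligand, and by Flt4 (-0.54, SE 0.3202), the receptor of lymphatic endothelium. The 13 genes of Wnt signalling to brain endothelium had a median of 0.01. Gpr124 (now Adgra2) and Reck, which together form the endothelial co-receptor for Wnt7 ligands, had values of 0.32 (SE 0.149) and 0.37 (SE 0.191), and the co-receptor gene Lrp6 -0.14 (SE 0.109). The ligand gene Wnt7a had 17.9, 13.8 and 11.2 CPM in WT and 17.5, 14.9 and 17.1 CPM in KO, with overlap. Wnt7b had 31.4, 34.5 and 32.4 CPM in WT and 29.7 ± 1.57 CPM (SD, n = 3) in KO, all lower but not called (edgeR adjusted p = 0.717). Of 13 hypoxia targets 0 were called, with a median of 0.01. Ndrg1, which myelinating cells also express, had the smallest p (-0.46, SE 0.141, edgeR adjusted p = 0.254, and 0.0251 with the block), ahead of Pdk1 (-0.22, SE 0.115) and Higd1a (0.21, SE 0.112).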

How the data were processed

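Per the labels' protocols, RNA was extracted from brain with Trizol and libraries followed the Illumina TruSeq mRNA protocol. The submitters' processing notes name mm10, the counter featureCounts 1.5.0, the aligner STAR 2.3.0e, and also Trimmomatic 0.32, FastQC 0.11.2 and DESeq2. The strand setting is not given in the sources used here, and 7 of the 32 members (Slc2a1, Eng, Abcb1a, Sox17, Abcc9, Tagln and Des) have exons that overlap a gene on the opposite strand in GENCODE M21, so reads may be shared. The authors deposited whole-number counts per gene and a normalized signal, which is the count divided by 1 size factor per library.

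Counts were filtered (filterByExpr), scaled by TMM and tested with edgeR 4.0.16 (glmQLFit, glmQLFTest, 4 residual degrees of freedom, 2 with the block) in R 4.3.3, with Benjamini-Hochberg adjustment over the 16592 genes tested. DESeq2 1.42.0, limma 3.58.1 and other scalings, filters, covariates and left-out libraries were alternatives. After the group means were subtracted, same-numbered samples correlated at 0.351, 0.334 and 0.177, above the limit of 0.1. The numbers were taken as pairs only in the fits with the replicate block, which were alternatives. The main fit had no block. WT replicate 3 with KO replicate 2 also passed the limit, at 0.1002, and the other unlike-numbered combinations lay below it. The pairing comes from these same data, not the labels, which limits the calls made with the block. Exonic lengths and gene positions are from GENCODE M21, promoters from RefSeq. Intervals are 95% for the log2 fold change.

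All members were to be named and, of most other lists, the called genes and the 3 with the smallest p; the lists of cerebellar, choroid plexus, blood and oligodendrocyte genes served as checks. Any other gene was named after its values were seen. The members and lists were chosen with earlier results of these data known. Older symbols were matched through RefSeq, and 1 listed gene, Hba-a1, was not matched.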

Additional observations from a re-analysis of the deposited data

How the results depend on the processing

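The count of called genes was 199 and became 314 with DESeq2, 566 with the replicate block, 535 with the cerebellar term and block, 129 with a term for sex and 482 with length-adjusted offsets and block, and it ran from 100 to 305 with each library left out in turn. Endothelial calls were 0 except for 1 (Mfsd2a) with length-adjusted offsets and the replicate block, and mural calls 0 except for 1 (Vtn) with the cerebellar term and block. Under no other alternative was a member called. The endothelial median ran from -0.09 to 0.01 and the mural median from -0.01 (without WT replicate 1) to 0.35 (with the cerebellar term and block). Values near 0 changed sign without being called, 43 times over 15 members, the largest being 0.24. Tek was at -0.0016 with DESeq2, -0.0016 with RLE factors, -0.00023 with length-adjusted offsets, -0.0081 with these and the block, -0.012 with limma on log2 signal plus 1, -0.0078 with limma-voom, -0.0063 with the replicate block and -0.048 with a term for sex. Ly6c1 was at -0.048 with length-adjusted offsets, -0.038 with these and the block and -0.023 with a term for sex. With the term for sex Sox18 was at 0.013 and Tie1 at -0.0079, and with the cerebellar term Cdh5 at -0.042. With the cerebellar term and block Abcb1a was at 0.11, Abcc9 at 0.24, Kdr at 0.0093 and Myh11 at 0.15. With each library left out in turn the values ran from -0.32 to 0.023 for Kdr, -0.084 to 0.13 for Tek, -0.10 to 0.14 for Tie1, -0.19 to 0.21 for Cdh5, -0.098 to 0.18 for Ly6c1, -0.15 to 0.080 for Esam, -0.025 to 0.060 for Eng, -0.27 to 0.026 for Abcb1a, -0.0012 to 0.19 for Vwf, -0.47 to 0.041 for Erg, -0.13 to 0.010 for Sox18, -0.27 to 0.049 for Abcc9, -0.016 to 0.30 for Acta2, -0.15 to 0.0045 for Tagln, -0.37 to 0.20 for Myh11 and -0.30 to 0.070 for Aplnr. The cause of these changes was not tested. Low counts limit the precision of Icam2, Higd1b, Des and Cnn1.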

Other observations

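Blood cell transcripts varied between libraries of both groups. The summed level of the 7 matched blood cell markers was 249 to 367 CPM in WT and 233 to 371 CPM in KO. Hbb-bs, a beta-globin gene, stood at 133.9, 228.2 and 157.6 CPM in WT and at 146.3, 124.9 and 186.1 CPM in KO for replicates 1 to 3, with overlapping groups. The 6 choroid plexus markers, led by the transthyretin gene Ttr, summed to 408 to 578 CPM in WT and 533 to 946 CPM in KO, with 0 called by edgeR and 1, Ttr, with the replicate block (edgeR adjusted p = 0.406 and 0.0144). At an unadjusted p under 0.05 there were 0 blood cell and 2 choroid plexus markers.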
